A study of Eublepharis macularius with 4 samples.

Results

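MSX1, MSX2, LHX6, LHX8, PAX9 and BARX1 were chosen by name, as transcription factors known from the mesenchyme of developing teeth, and their transcripts were read in every cell of the series. They are 6 of the 24025 features in the tables, and all 6 were detected. Single-cell RNA sequencing of adult leopard gecko (Eublepharis macularius) jaw gave 4 libraries from 2 animals. The tissue held oral mucosa, dental lamina, dental mesenchyme and unerupted teeth, and after dissociation a sort kept the cells that took up no propidium iodide. For animal LG252 the enzymes were collagenase D (1.5 U/ml) and dispase II (2.4 U/ml), with 4 to 5 h at 37 °C, and for animal LG255 a Bacillus licheniformis protease (10 mg/ml), with 6 h at 4 °C. Each animal gave replicates 1 and 2, which the titles call biological without saying whether they were separate pieces of tissue, so their spread may be partly technical. Animal and dissociation changed together and cannot be told apart.

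Msx genes encode homeodomain factors that respond to BMP signals and pass them on between dental epithelium and mesenchyme. In mouse embryos MSX1 and the paired-box factor PAX9 sustain BMP4 in the mesenchyme of the tooth bud, and teeth arrest early without either. LHX6 and LHX8 are LIM-homeodomain factors of the jaw mesenchyme that molars need jointly in the mouse, and BARX1 marks the mesenchyme of the future molars there. MSX2 is also known from the mouse enamel organ, and PAX9 from oral and pharyngeal epithelia.

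Cells were classed by genes other than these 6. A cell with at least 5 UMIs (unique molecular identifiers, each standing for 1 captured transcript) of COL1A1, COL1A2, DCN and LUM together was called mesenchymal, and a cell with at least 10 UMIs of LOC129339097, a locus without a gene symbol, epithelial. Values of an animal are given below for replicate 1, then replicate 2. Mesenchymal cells numbered 395 and 794 in LG252, but 19 and 106 in LG255. Epithelial cells numbered 567 and 630 in LG252, with 455 and 889 in LG255. All other cells numbered 3377 and 757 in LG252, with 270 and 283 in LG255. A further 70 cells met both rules and were kept apart. The class was checked against other mesenchymal markers: the 11 of that list, led by COL3A1 and SPARC, summed to between 8850 and 12424 CPM (UMI counts of a gene scaled to all UMIs of the summed cells) in mesenchymal cells. Of 9 listed epithelial markers, 6 were among the features. Their sum lay between 31.4 and 190 CPM in mesenchymal cells, against 2167 to 2593 CPM in epithelial cells. PERP gave the largest part in mesenchymal cells (92.1 CPM over all libraries). CLDN4 was at 0 there, but had only 1.32 CPM in epithelial cells. Median depth was lower in mesenchymal cells (1933 to 5044 UMIs) than in epithelial cells (6863 to 11958 UMIs), and pairs of libraries shared between 2 and 8 barcode sequences.

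MSX1 had the cleanest restriction to mesenchyme. Its level in mesenchymal cells was 49.2 and 223 CPM in LG252 and 36.7 and 12.8 CPM in LG255. Its low LG255 values rest on 4 and 6 UMIs. In epithelial cells it was 0 and 0.499 CPM in LG252 and 0 and 0 CPM in LG255, and in the other cells 0 and 1.82 CPM in LG252 and 0 and 0 CPM in LG255. Mesenchymal values therefore lay above all epithelial and other values, without overlap. Of 910 MSX1 UMIs in the whole series, 894 (98.2%) were in mesenchymal cells and 3 in epithelial cells, so that pooled CPM was 1404 times as high in mesenchyme (95% interval from counting error 479 to 6819). That ratio rests on LG252 replicate 2, which held 837 of the mesenchymal and all 3 epithelial UMIs. LHX8 was nearly as restricted, with 144 and 199 CPM in mesenchymal cells of LG252 and 349 and 219 CPM in those of LG255. Its epithelial level was 0.136 and 1.16 CPM in LG252 and 0 and 0.369 CPM in LG255, and 94.7% of its 1085 UMIs were mesenchymal. LHX6, its partner in mouse jaw mesenchyme, had 28.3 and 24.0 CPM in mesenchymal cells of LG252 and 55.1 and 23.4 CPM in those of LG255. In epithelial cells LHX6 had 0 and 0.665 CPM in LG252 and no UMI in either LG255 library. Its 134 mesenchymal UMIs were 85.4% of all its UMIs.

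PAX9 and the remaining homeobox genes were read in epithelium too. PAX9 had 104 and 85.0 CPM in mesenchymal cells of LG252 and 64.2 and 19.2 CPM in those of LG255. The epithelial values were 17.6 and 13.0 CPM in LG252 and 1.48 and 4.18 CPM in LG255. Every mesenchymal value was above every epithelial one, but the nearest were 19.2 and 17.6 CPM. The mesenchymal values of LG255 rest on 7 and 9 UMIs. Mesenchymal cells held 57.4% of its UMIs and epithelial cells 32.7%. MSX2 had 5.24 and 153 CPM in mesenchymal cells of LG252 and 82.6 and 104 CPM in those of LG255, against 21.4 and 36.1 CPM in epithelial cells of LG252 and 6.50 and 8.36 CPM in those of LG255. In LG252 replicate 1 it was thus lower in mesenchyme than in epithelium, and in the other 3 libraries it was higher. BARX1 had 213 and 43.1 CPM in mesenchymal cells of LG252 and 45.9 and 17.04 CPM in those of LG255, against 6.78 and 17.8 CPM in epithelial cells of LG252 and 19.8 and 7.25 CPM in those of LG255. It was higher in mesenchyme in all 4 libraries, although the 2 sets of values overlapped. Its mesenchymal values in LG255 rest on 5 and 8 UMIs.

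**Figure D1:**
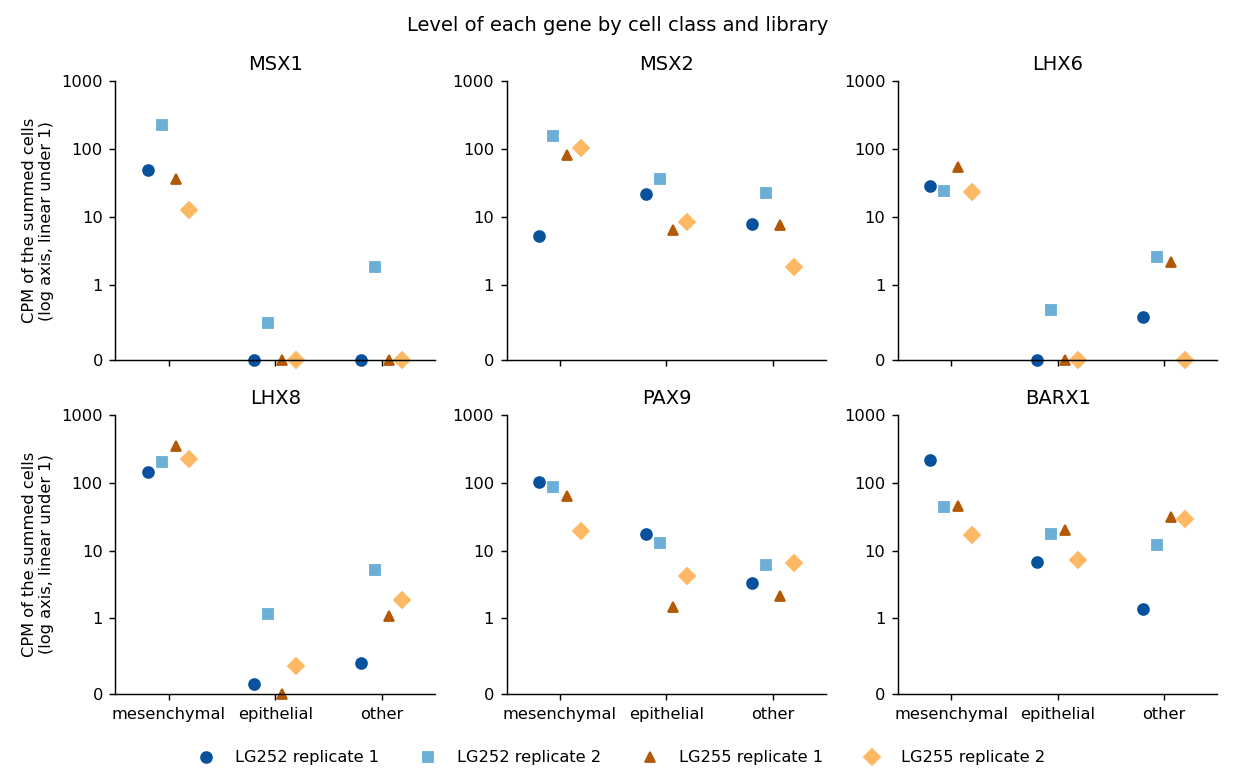
CPM of each gene (vertical axis, logarithmic and linear under 1) in the summed mesenchymal, epithelial and other cells of each of the 4 libraries (symbols). MSX1, LHX6, LHX8, PAX9 and BARX1 sit above epithelium in mesenchyme in every library, and MSX2 falls to 5.24 CPM in mesenchymal cells of LG252 replicate 1.

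The test of mesenchymal over epithelial cells used the sums of each library and edgeR's quasi-likelihood test with the library as a block. At an adjusted p of 0.05, 4 of the 6 genes passed, all higher in mesenchyme, where 28.9% of the 11638 genes tested passed in either direction, 13.5% higher and 15.4% lower. MSX1 rose by 8.65 on the log2 scale (SE 0.53, edgeR adjusted p of 7.43e-07), LHX8 by 8.37 (SE 0.50, adjusted p of 6.90e-07) and LHX6 by 6.74 (SE 0.71, adjusted p of 2.57e-05). The fitted values of MSX1 and LHX6 rest on 3 and 4 epithelial UMIs and depend on the prior count. MSX1, LHX8 and LHX6 had few or no UMIs in the epithelial sums and passed the count filter through the mesenchymal ones. For these genes a call could therefore only be higher in mesenchyme. PAX9 rose by 2.44 (SE 0.40, adjusted p of 0.000626). BARX1 (1.804, SE 0.65, edgeR adjusted p of 0.0577) and MSX2 (1.57, SE 0.69, adjusted p of 0.117) did not pass. MSX2 passed without LG252 replicate 1 (2.37, edgeR adjusted p of 4.73e-06), and its fold change without LG255 replicate 2 was 0.92 (adjusted p of 0.406). BARX1 passed without LG255 replicate 2 (2.14, edgeR adjusted p of 0.0310), and without LG252 replicate 1 its fold change was 0.69 (adjusted p of 0.163). Without the mesenchymal cells that held at least 3 UMIs of epithelial or of immune markers (63 and 59 in LG252, 0 and 9 in LG255), a choice made after seeing the data, BARX1 passed as well (1.92, edgeR adjusted p of 0.0481). Both genes passed with no filter on low counts (MSX2 1.47, edgeR adjusted p of 0.000399, and BARX1 1.70, adjusted p of 4.37e-05) and after thinning to 2000 UMIs (MSX2 1.86, adjusted p of 0.0153, and BARX1 2.22, adjusted p of 0.00381). BARX1 also passed with no replicate block (2.35, edgeR adjusted p of 0.0419) and with an epithelial minimum of 20 UMIs (2.05, adjusted p of 0.0235).

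Against all other cells, mostly immune cells in LG252 replicate 1, the same 4 genes passed, where 13.8% of the 8166 genes tested did so, 6.94% higher and 6.85% lower. This comparison uses the same mesenchymal sums as the previous one. MSX1, LHX8 and LHX6 again passed the count filter through the mesenchymal sums, so a call could only be higher there. The mix of other cells differed between the animals. In LG255, 29 of 270 and 23 of 283 other cells led in immune markers and 95 and 97 in epithelial markers. A further 126 and 152 led in no list. MSX1 rose by 7.57 on the log2 scale (SE 0.78; edgeR's adjusted p 0.00257), LHX8 by 6.57 (SE 0.65, adjusted p 0.00242), LHX6 by 4.29 (SE 0.62, adjusted p 0.00792) and PAX9 by 3.50 (SE 0.65, adjusted p 0.0178). PAX9 missed the threshold without LG252 replicate 2 (3.43, edgeR adjusted p of 0.109) and without LG255 replicate 1 (3.27, adjusted p of 0.0638). MSX2 (2.30, SE 0.84, edgeR adjusted p of 0.125) did not pass, and passed without LG252 replicate 1 (3.003, adjusted p of 0.00164), with no filter on low counts (2.21, adjusted p of 0.00755) and with DESeq2 (2.36, adjusted p of 0.0188). BARX1 (1.53, SE 1.39, edgeR adjusted p of 0.506) did not pass, and without LG252 replicate 1 its fold change was 0.24 (adjusted p of 0.793). Its level in other cells was 1.40 and 11.99 CPM in LG252 and 31.3 and 29.6 CPM in LG255.

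**Figure D2:**
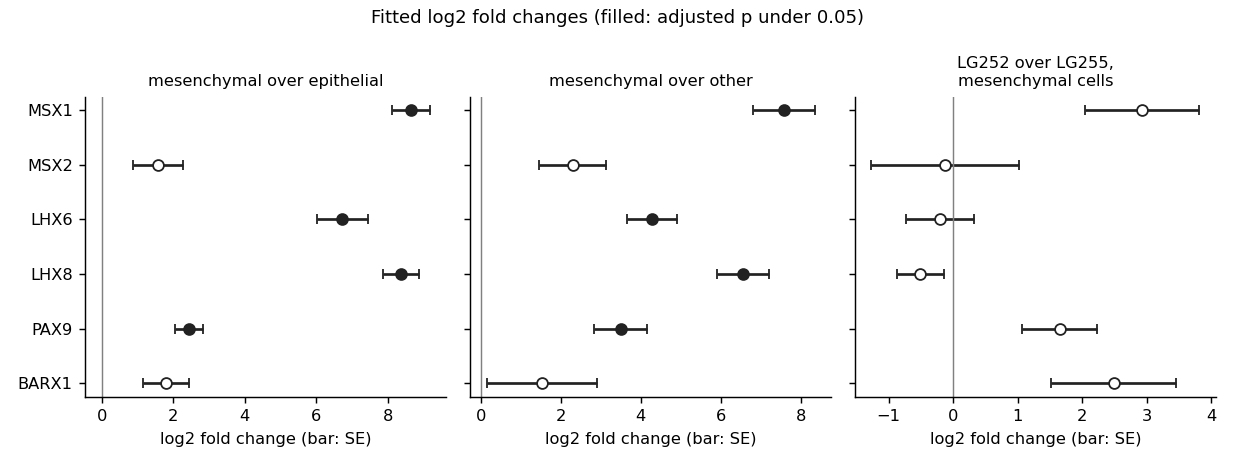
Fitted log2 fold changes (points) with their standard errors (bars) for the 6 genes in mesenchymal over epithelial cells, mesenchymal over other cells, and LG252 over LG255 within mesenchymal cells, with filled points past an adjusted p of 0.05. MSX1, LHX6, LHX8 and PAX9 are filled in both comparisons of cell classes and no gene is filled in the comparison of animals.

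Outside the mesenchyme each of the 3 less restricted genes had its own distribution. Of the BARX1 UMIs, 74.9% and 53.5% were mesenchymal in LG252, but 4.95% and 8.08% in LG255, where the mesenchymal class is small (955067 and 3754482 UMIs in LG252, 108984 and 469458 UMIs in LG255). In LG255, cells that led in epithelial markers but missed the LOC129339097 minimum had 44.3 and 39.5 CPM of BARX1, in 15 of 95 and 16 of 97 cells. Epithelial cells with a BARX1 UMI had less LOC129339097 than those without in every library, at 9923 and 7075 CPM in LG252 and 10917 and 16639 CPM in LG255, against 13154 and 11399 CPM in LG252 and 16307 and 19382 CPM in LG255 for cells without. With every cell thinned to 5000 UMIs the ratios of these levels were 0.760 and 0.606 in LG252 and 0.620 and 0.768 in LG255. The epithelial cells were chosen by their LOC129339097 count, so the levels compared are cut off at its minimum.

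Epithelial cells with MSX2 were compared with those without by the dental epithelial list. The dental epithelial list (SP6, DLX3, FOXI3, IRX1, ISL1, TBX1 and the enamel genes AMELX, AMBN and ENAM) summed to 116 and 200 CPM in MSX2-positive epithelial cells of LG252 and to 88.9 and 130 CPM in those of LG255. In MSX2-negative epithelial cells the sum was 98.3 and 145 CPM in LG252 and 78.2 and 59.6 CPM in LG255, lower in all 4 libraries. TBX1 (1236 UMIs) and ISL1 (817 UMIs) gave most of the list in epithelial cells, where AMELX had 36, AMBN 0 and ENAM 2 UMIs, and in LG255 replicate 1 both TBX1 and ISL1 were lower in cells with MSX2. The ratios at 5000 UMIs were 1.19 and 1.59 in LG252 and 1.69 and 2.87 in LG255, where the first LG255 value rests on a mean of 8.3 positive cells. For PAX9-positive epithelial cells the same ratio was 1.16 and 0.746 in LG252 and 0.632 in LG255 replicate 2, with too few positive cells in the remaining library. No test was made, since cells of 1 library are not replicates.

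MSX2 was also read in cells that led in immune markers. In LG252 replicate 1 these 2478 cells held 67 MSX2 UMIs, in 2.30% of the cells and at 6.87 CPM, beside 5.24 CPM in mesenchymal cells of that library. The same immune cells held no MSX1 UMI and 580 UMIs of LOC129339097. Per 1000 UMIs of LOC129339097 they held 116 of MSX2, against 1.66 in epithelial cells of that library. They also held 112 UMIs of the collagen, DCN and LUM rule. Mesenchymal cells of that library held 18833 of these and 5 of MSX2. The part of free RNA in these counts was not tested. For MSX1 the low counts outside mesenchyme were all in LG252 replicate 2, the library with the most mesenchymal cells. It was detected there in 0.476% of 630 epithelial cells and 0.661% of 757 other cells. Whether these counts are expression or free RNA was not tested.

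Within mesenchyme, no gene of the 6 was found in all cells. MSX1 was detected in 8.86% (95% exact interval 6.25 to 12.1) and 43.8% (40.3 to 47.4) of mesenchymal cells in LG252 and in 15.8% (3.38 to 39.6) and 5.66% (2.11 to 11.9) in LG255. LHX8 was detected in 27.3% (23.0 to 32.0) and 46.7% (43.2 to 50.3) in LG252 and in 68.4% (43.4 to 87.4) and 43.4% (33.8 to 53.4) in LG255. MSX2 was detected in 1.27% (0.412 to 2.93) and 28.8% (25.7 to 32.1) in LG252 and 42.1% (20.3 to 66.5) and 29.2% (20.8 to 38.9) in LG255. The intervals of the LG252 libraries, which cover counting error over cells, did not overlap for any of these 3 genes, and median depth differed as well (1933 and 3763.5 UMIs). LHX6 was detected in 6.08% and 9.82% of the cells in LG252 and in 31.6% and 9.43% in LG255. PAX9 was detected in 22.0% and 26.4% in LG252 and in 36.8% and 7.55% in LG255. BARX1 was detected in 30.4% (25.9 to 35.2) and 14.6% (12.2 to 17.3) in LG252 and in 21.1% and 6.60% in LG255, the reverse order of MSX1 between the LG252 libraries. The largest count of any of the 6 genes in 1 mesenchymal cell was 15, for MSX2 in LG252 replicate 2. In epithelial cells, which are deeper, the shares were at most 0.476% for MSX1 and for LHX6 and at most 1.11% for LHX8, but at most 22.2% for MSX2, 14.3% for PAX9 and 12.5% for BARX1.

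Thinning each cell to 2000 UMIs, which left out 205 and 249 shallower cells in LG252 and 3 and 25 in LG255, kept the order of the LG252 libraries for MSX1, MSX2, LHX8 and BARX1 and turned it for LHX6 and PAX9. MSX1 then stood at 10.4% and 32.1% in LG252, with 4.66% and 3.45% in LG255. MSX2 stood at 0.513% and 22.0% in LG252 and 15.1% and 16.6% in LG255. BARX1 stood at 30.4% and 7.53% in LG252 and 14.4% and 3.17% in LG255. LHX8 stood at 22.4% and 32.8% in LG252 and 43.8% and 30.3% in LG255. LHX6 stood at 6.39% and 4.98% in LG252 and 11.9% and 6.39% in LG255, with PAX9 at 18.1% and 15.5% in LG252 and 12.9% and 5.82% in LG255. Thinned epithelial shares were at most 5.86%, for MSX2 in LG252 replicate 2.

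**Figure D3:**
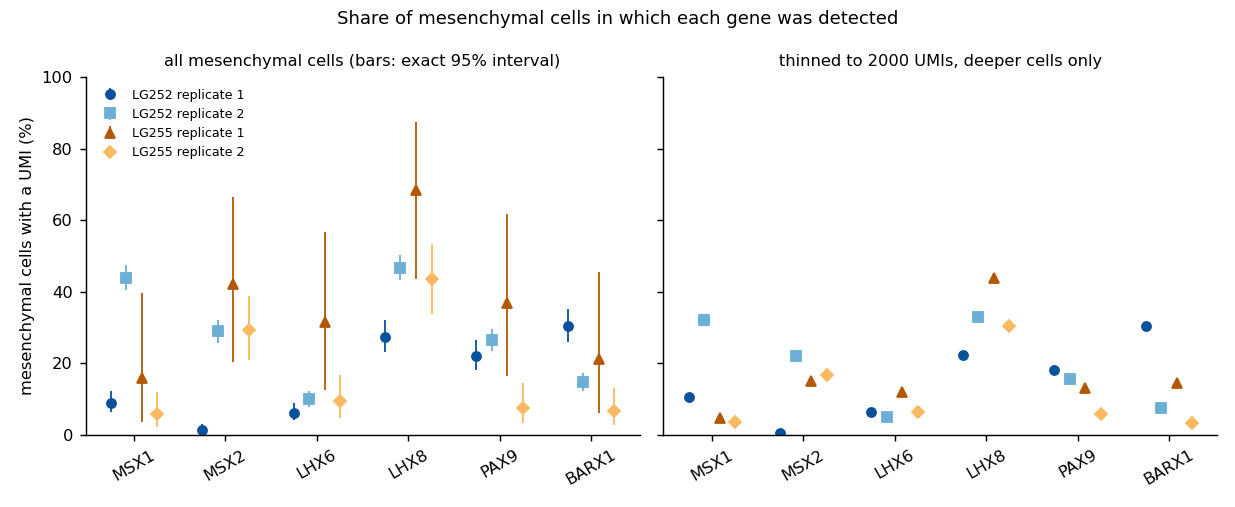
Percentage of mesenchymal cells with at least 1 UMI of each gene, for the 4 libraries (symbols), with exact 95% intervals for all cells (left) and after thinning to 2000 UMIs (right). BARX1 was detected in 30.4% of the cells of LG252 replicate 1 and 14.6% of those of LG252 replicate 2, while MSX1 and MSX2 go the other way.

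Between the animals, the shares at full depth overlapped for MSX1, LHX6, LHX8, PAX9 and BARX1. For MSX2 both LG255 shares (42.1% and 29.2%) lay above both LG252 shares (1.27% and 28.8%), the nearest being 29.2% and 28.8%. After thinning to 2000 UMIs the MSX2 shares overlapped (0.513% and 22.0% in LG252, 15.1% and 16.6% in LG255). At that depth both LG252 shares of MSX1 and of PAX9 lay above both LG255 shares. The nearest thinned LHX6 shares were 6.39% in each animal. How many of all genes separate as MSX2 did at full depth, or as MSX1 and PAX9 did after thinning, was not counted. No difference between the animals is therefore read from these separations. Differences were taken between the mean shares at full depth. LG252 minus LG255 was 15.6 percentage points for MSX1, 8.67 for BARX1 and 2.04 for PAX9, and -20.6 for MSX2, -18.9 for LHX8 and -12.6 for LHX6. The exact permutation test (two-sided) over libraries gave p of 0.3333 for MSX2, the lowest that 2 libraries against 2 can give. For the remaining genes the same permutation test gave p of 0.667 or above. The edgeR test of the mesenchymal sums passed none of the 6. Over all genes, 0.445% of 7637 passed (34 genes, 0.34% higher and 0.105% lower in LG252). At an unadjusted p under 0.05 there were 3 of the 6, beside 945 of the 7637 genes. MSX1 averaged 136 ± 123 CPM in LG252 and 24.7 ± 16.9 CPM in LG255 (SD, n = 2 each), a difference of 2.93 log2 units (SE 0.89, edgeR adjusted p of 0.254). BARX1 averaged 128 ± 120 CPM in LG252 and 31.5 ± 20.4 CPM in LG255 (SD, n = 2 each), a difference of 2.49 log2 units (SE 0.97, edgeR adjusted p of 0.375). PAX9 averaged 94.3 ± 13.2 CPM in LG252 and 41.7 ± 31.9 CPM in LG255 (SD, n = 2 each), a difference of 1.66 log2 units (SE 0.58, edgeR adjusted p of 0.332). LHX8 (-0.51), LHX6 (-0.20) and MSX2 (-0.12) did not pass either, and the sign for LHX6 and MSX2 turned under some alternatives. The difference between the animals in the mesenchymal over epithelial fold change itself, tested as an interaction with the library as a block and chosen after seeing the data, passed for 1 of 11638 genes (0.00859%) and for none of the 6. There were 832 genes at an unadjusted p under 0.05 in that test, and MSX2 was the 1 of the 6 among them (unadjusted p from edgeR 0.0209, log2 difference -2.78, SE 1.02).

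Leaving out either LG252 library changed several of these values. Without LG252 replicate 2, the log2 fold change of LG252 over LG255 was 3.34 for BARX1, 1.96 for PAX9 and -3.92 for MSX2. Without LG252 replicate 1, it was 3.69 for MSX1 and 0.78 for MSX2. In these fits 1 library stands for LG252 and is assumed to vary like those of LG255. Other markers moved with the same libraries: in mesenchymal cells of LG252 the connective tissue fibroblast list (DPT, MFAP5, PI16 and CD34) summed to 1375 and 426 CPM, the mural list (ACTA2, MYH11 and TAGLN) to 979 and 262 CPM, the immune list to 731 and 61.8 CPM and the cycling list (MKI67, TOP2A, CDK1 and CENPF) to 3.14 and 328 CPM. In LG255 these lists summed to 220 and 281 CPM, 248 and 121 CPM, 0 and 2.13 CPM, and 385 and 288 CPM. At least 3 UMIs of immune markers were held by 62 and 14 mesenchymal cells of LG252 and by none of LG255, and at least 3 of epithelial markers by 1 and 45 in LG252 and 0 and 9 in LG255. The part of these cells in the differences between libraries was not tested, beyond the fit without them, in which none of the 6 passed between the animals.

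Mesenchymal cells often carried more than 1 of the genes. At least 1 of the 6 was detected in 62.5% and 75.6% of mesenchymal cells in LG252 and in 100% and 65.1% in LG255, and at least 2 in 25.3% and 49.9% in LG252 and 73.7% and 30.2% in LG255. All 6 were found in 3 cells, all in LG252 replicate 2. In that library 309 cells had an MSX or LHX gene without PAX9 or BARX1, 65 had PAX9 or BARX1 alone and 226 had both sets. In LG252 replicate 1 the same numbers were 73, 98 and 76.

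Co-detection was set against the number of cells expected if genes were detected independently within each library. At full depth all 15 pairs were found together more often than expected, by ratios of 1.12 to 1.77. These ratios make no allowance for differences in depth between cells, and the part of depth in them was not tested. With cells thinned to 2000 UMIs (832 cells), MSX2 with LHX6 stood at 1.67 times the expected number (11.99 cells on average, 7.19 expected), MSX1 with LHX6 at 1.48, LHX6 with LHX8 at 1.33, MSX2 with LHX8 at 1.29 and MSX1 with MSX2 at 1.25. These were 5 of the 6 pairs among the MSX and LHX genes, and the remaining pair, MSX1 with LHX8, stood at 1.09, below MSX1 with BARX1 at 1.12. PAX9 stood near its expectation with MSX1 (0.996), LHX6 (1.00) and LHX8 (1.01), and lower with MSX2 (0.895) and BARX1 (0.880). At 1000 UMIs (1144 cells) the 6 pairs among the MSX and LHX genes stood between 1.22 and 1.65. There PAX9 stood at 1.06 with MSX2, 1.07 with BARX1 and 1.39 with LHX6 (3.88 cells on average, 2.80 expected), so its order among the pairs changed with the depth. These are counts over cells of 4 libraries, mostly from LG252 replicate 2, and carry no test. At full depth and without that library, MSX2 with LHX6 stood at 0.869 and MSX1 with MSX2 at 1.16, with few cells left.

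**Figure D4:**
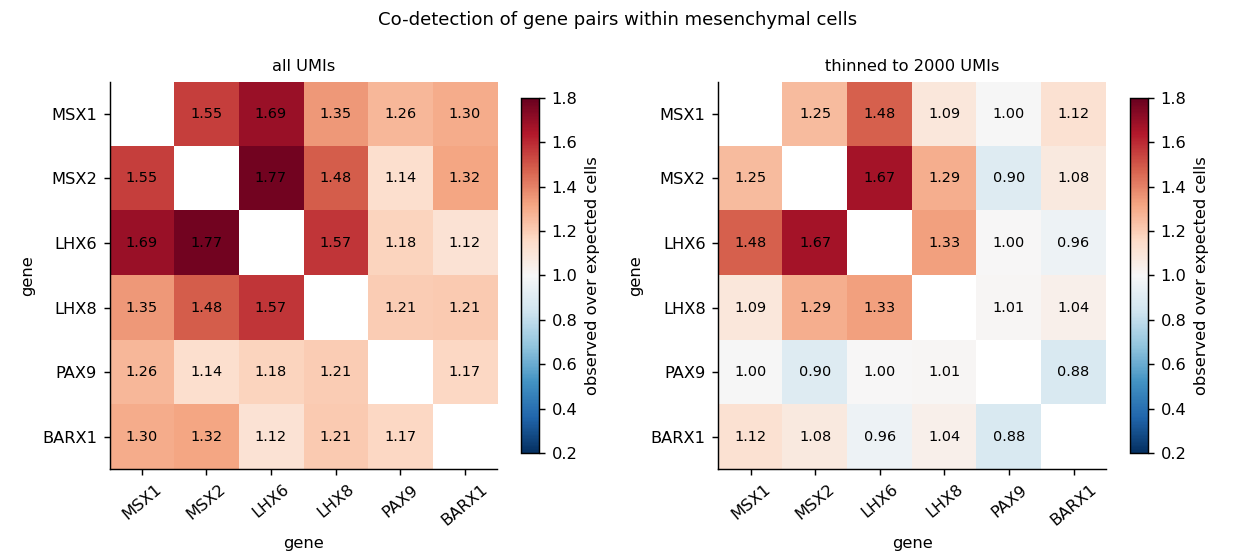
Observed over expected number of mesenchymal cells with both genes of a pair (numbers and colour), summed over the 4 libraries, at full depth (left) and after thinning to 2000 UMIs (right). The ratios among MSX1, MSX2, LHX6 and LHX8 stay above 1 after thinning, while PAX9 with BARX1 goes to 0.88.

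In LG252 replicate 2, MSX1, MSX2 and LHX6 were found in cells with less of the connective tissue fibroblast list, and LHX8 less markedly so. This library had most of the mesenchymal cells. The list summed to 187 CPM in cells with an MSX1 UMI against 774 CPM in cells without. For MSX2 it was 152 CPM with and 615 CPM without, for LHX6 105 CPM with and 470 CPM without, and for LHX8 304 CPM with and 623 CPM without. PAX9 (387 CPM with and 451 CPM without) and BARX1 (353 CPM with and 443 CPM without) showed a smaller gap. At 2000 UMIs the ratio of cells with to cells without was 0.328 for MSX1, 0.222 for MSX2, 0.165 for LHX6 and 0.743 for LHX8, but 1.22 for PAX9 and 1.20 for BARX1. DPT and MFAP5 gave nearly all of the list. In LG252 replicate 1, where the list was high throughout, the thinned ratios were 1.13 for MSX1, 0.749 for LHX6, 0.930 for LHX8, 0.973 for PAX9 and 0.983 for BARX1, so the contrast of the other LG252 library was not seen there. In LG255 replicate 2, with all UMIs, the list stood at 77.0 CPM in 31 cells with MSX2 and 462 CPM in cells without, and the thinned ratio was 0.0784 for MSX2 on a mean of 12.4 cells and 0.990 for LHX8. In LG255 replicate 1 the thinned list stood at 0 CPM in cells with LHX8, a mean of 6.9 cells, and 522 CPM in cells without.

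Cells with these genes also held more of the cycling list in LG252 replicate 2 at full depth, but they were deeper. The list summed to 451 CPM in cells with MSX1 (median 5374 UMIs) against 148 CPM in cells without (median 2122.5 UMIs), and to 478 CPM in cells with PAX9 (median 5304.5 UMIs) against 234 CPM in cells without (median 3154.5 UMIs). After thinning to 2000 UMIs the ratio was 1.57 for MSX1 and 1.20 for MSX2, and it was 0.809 for PAX9 and 0.834 for LHX8. The full-depth order of PAX9 and LHX8 thus did not hold at matched depth.

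Smooth muscle and mineralising cell markers differed with the gene and the library. The mural list stood at 8.23 and 177 CPM in mesenchymal cells of LG252 with MSX1, against 1121 and 385 CPM in cells without. For BARX1 it was 1347 and 66.0 CPM in cells with a UMI, against 719 and 307 CPM in cells without, and so ran in opposite directions in the LG252 libraries. After thinning to 2000 UMIs the mural ratio of cells with to cells without was 0 and 0.325 for MSX1 and 1.46 and 0.151 for BARX1 in LG252. The osteoblast or odontoblast list of 7 genes stood at 133 CPM in cells of LG252 replicate 2 with MSX2 and 116 CPM in cells without, and at 272 CPM and 28.1 CPM in LG255 replicate 2. After thinning, the order in LG252 replicate 2 was the other way (90.2 CPM with and 136 CPM without), while in LG255 replicate 2 the list stood at 476 CPM with and 77.3 CPM without, on a mean of 12.4 cells with MSX2. DLX3, a homeobox gene of the dental list, stood at 72.5 CPM in cells of LG252 replicate 2 with MSX2 and 28.8 CPM in cells without. One mesenchymal-classed cell of LG255 replicate 2 held 3775 UMIs of enamel genes and 2 of MSX2, which makes up nearly all of that library's dental list sum of 8214 CPM.

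**Figure D5:**
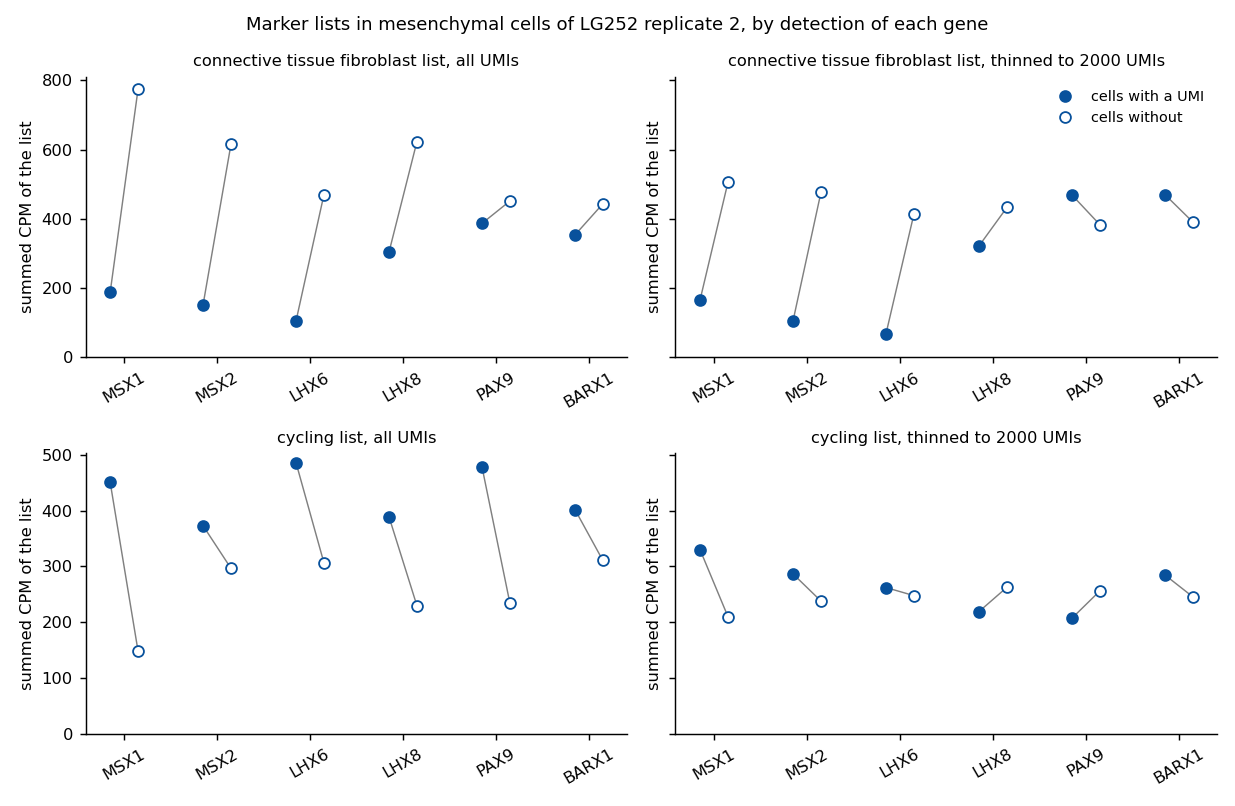
Summed CPM of the connective tissue fibroblast list (top) and the cycling list (bottom) in mesenchymal cells of LG252 replicate 2 with a UMI of each gene (filled) and without (open), with all UMIs (left) and after thinning to 2000 UMIs (right). The fibroblast list stays lower in cells with MSX1, MSX2 or LHX6 at both depths, and the cycling list, higher in cells with each of the 6 genes at full depth, is lower in cells with PAX9 or LHX8 after thinning.

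The jaw and tooth transcription factors of the mesenchyme largely shared the direction of the 6 genes. Of 38 listed, 36 were in the files and 22 were tested in mesenchymal over epithelial cells, where 14 were higher and 3 lower, beside 13.5% higher and 15.4% lower over all genes tested. Their median log2 fold change was 2.65 against -0.02 over all genes tested. The paired-type homeobox genes PRRX1 (7.26, edgeR adjusted p of 6.90e-07) and PRRX2 (5.98, adjusted p of 2.10e-06) were higher, as was OSR2, a zinc-finger factor that restricts tooth formation in the mouse (5.35, adjusted p of 7.79e-07). MEIS1 (-3.62, edgeR adjusted p of 1.49e-05), SOX9 (-1.93, adjusted p of 0.000884) and MEIS2 (-3.49, adjusted p of 0.00388) were lower. Against other cells 13 of 22 were higher and none lower, where 6.94% of all genes tested were higher, with a median of 2.84 against -0.0032 over all genes tested.

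Of 31 listed signals between dental epithelium and mesenchyme, 25 were tested in mesenchymal over epithelial cells and 13 were higher and 3 lower, where 13.5% of all genes tested were higher and 15.4% lower. Their median log2 fold change was 1.13 against -0.02 over all genes tested. The WNT antagonist SFRP2 (7.88, edgeR adjusted p of 1.82e-07), the endothelin receptor EDNRA (8.12, adjusted p of 5.76e-07) and the growth factors FGF7 (7.18, adjusted p of 4.97e-06) and FGF10 (7.35, adjusted p of 5.52e-06) were higher. WNT7B, an epithelial WNT ligand, was lower (-5.10, edgeR adjusted p of 3.69e-05). BMP4, the signal tied to MSX1 and PAX9 in the mouse, was higher by 4.86 (edgeR adjusted p of 1.56e-05) and was named after its values were seen. It stood at 28.3 and 80.7 CPM in mesenchymal cells of LG252 and at 0 and 42.6 CPM in those of LG255, where 1 library had no UMI in 19 cells. Against other cells 7 of 20 signals were higher and none lower, where 6.94% of all genes tested were higher. Between the animals, none of the 22 transcription factors and none of the 21 signals tested passed.

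The relatives that could be tested mostly ran the other way. Of 23 LIM-homeobox, BAR-type, paired-box and NKX genes, 17 were too low to test and 5 of the other 6 were lower in mesenchymal than in epithelial cells, where 15.4% of all genes tested were lower. These 5 were at or near 0 in most mesenchymal sums and passed the filter through the epithelial ones, so the count does not speak for the 23. ISL1 (-6.46, edgeR adjusted p of 9.88e-05) and ISL2 (-4.77, adjusted p of 9.53e-05), both LIM-homeobox genes, were detected in 21.3% and 12.7% of epithelial cells. BARX2 (-5.62, edgeR adjusted p of 0.000139), the closest relative of BARX1, was detected in 18.0%, LMX1B (-4.88, adjusted p of 0.000215) in 11.1% and PAX1 (-4.98, adjusted p of 0.000482), the closest relative of PAX9, in 4.96%. LHX2 was detected in 1.30% of epithelial cells and PAX3 in 1.45% of mesenchymal cells, and neither was tested. PAX5, a B-cell factor, did not pass between mesenchymal and epithelial cells (0.07, edgeR adjusted p of 0.95) and was detected in 36.4% of the other cells. PAX9 and BARX1 were thus read in both mesenchyme and epithelium, and their relatives PAX1 and BARX2 mainly in epithelium.

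The genes most alike across the 12 sums of 4 libraries and 3 classes, by Pearson r of log2(CPM + 1), were SCARA3 (0.997), ALX1 (0.993) and TIMP4 (0.992) for LHX8, PRRX2 (0.990), CACNA1G (0.989) and EDNRA (0.988) for LHX6, and LOC129342936 (0.976), CCN5 (0.975) and NRIP3 (0.974) for MSX1. For PAX9 they were FOXF1 (0.957), RHBDF1 (0.934) and PRRC1 (0.933), for BARX1 MYL9 (0.947), IGFBP7 (0.941) and NFIA (0.929), and for MSX2 LOC129345995 (0.949), LOC129342841 (0.928) and MPC1 (0.921). The sums share libraries and the difference between classes, which alone gives a high r to mesenchymal genes. LHX6 and LHX8 stood at 0.977 to each other, and MSX2 and BARX1 at 0.054. In mesenchymal cells thinned to 2000 UMIs in 10 random draws, genes were ranked by observed over expected cells with both genes. With MSX2 the highest ratios were those of ID4 (1.88, 17.3 cells observed), TENT5A (1.83, 18.4 cells) and BAMBI (1.75, 72.7 cells observed against 41.7 expected). MSX1 had LHX6, itself among the 6, first (1.64 over these draws, 17.1 cells, beside 1.48 computed exactly above), then NF1 (1.56, 18.7 cells). For LHX6 (UGCG, ACIN1 and TENT5A), LHX8 (PHLPP1, C6H3orf70 and KCTD11), PAX9 (MON2, HELZ2 and VASP) and BARX1 (CNOT9, GPD2 and TK2) the leading ratios rest on few cells, between 5.7 and 39.7.

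Values on both sides of the mesenchymal minimum were as follows. Among cells under the epithelial minimum, 61 had 3 or 4 UMIs of the collagen, DCN and LUM rule and 162 had 5 to 9. MSX1 stood at 99.03 CPM just inside the minimum and 7.86 CPM just outside, LHX8 at 175 and 70.8 CPM, PAX9 at 103 and 39.3 CPM and LHX6 at 34.3 and 0 CPM. The values just outside rest on 1 UMI for MSX1 and none for LHX6, too few to read a level. MSX2 stood at 129 CPM inside and 86.5 CPM outside, and BARX1 at 72.4 CPM inside and 102 CPM outside. With a minimum of 3 or of 10 UMIs, 4 of the 6 genes passed between mesenchymal and epithelial cells, as with 5. Over all genes tested, 3358 of 11649 passed with a minimum of 3 and 3354 of 11568 with a minimum of 10.

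On the gecko assembly MPM_Emac_v1.0, PAX9 lies on chromosome 2 (48795999 to 48834157), MSX2 (63531686 to 63539836) and BARX1 (112455800 to 112465623) on chromosome 4, LHX8 on chromosome 5 (68818847 to 68838709), LHX6 on chromosome 14 (41838924 to 41867177) and MSX1 on chromosome 15 (22621260 to 22626349). LOC129339097, used for the epithelial class, lies on chromosome 12 (38983034 to 39021928). Counts of UMIs from the 3′ end carry no term for gene length, so levels of different genes are not ranked here.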

How the data were processed

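The deposited values are raw UMI counts per gene and barcode, made by the authors with Cell Ranger 7.1.0 per the file headers (2.1.0 per the submitters' processing notes) on assembly MPM_Emac_v1.0. Annotation release, intronic reads and barcode calling are not given in the sources used here. All 8612 barcodes were used. Library totals were 20754804 and 12860780 UMIs in LG252 and 4535439 and 9830392 in LG255. Intervals cover counting error only.

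Counts were summed per library and class and compared with edgeR 4.0.16 (quasi-likelihood, TMM, filterByExpr, Benjamini-Hochberg over all genes tested), with the library as a block between classes and no block between animals. The replicate number names libraries of different animals and pairs nothing. Classes are cut by an absolute UMI minimum. Thinning drew each cell to a fixed number of UMIs. Scrublet in scanpy 1.11.5 called only 0.258% of cells by itself, so doublets were left in, and removing 2.43% at an assumed rate of 0.8% per 1000 cells was an alternative.

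The genes, lists and tests were chosen with earlier results of these data known. Besides the 6 genes, each list names up to 4 higher and 4 lower genes of smallest adjusted p with the same sign in every library, and every paralogue in at least 1% of a class. Some genes that these rules name are not reported here. DESeq2 1.42.0 and other filters, minimums and depths were alternatives. The fits were tested on simulated counts with a fixed dispersion and no library effects, which do not carry the spread between these libraries.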

Additional observations from a re-analysis of the deposited data

Results flagged for a closer look

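The 70 cells that met both class rules enter no comparison, and 4 of the 6 genes had more than 3 UMIs there, the number set for flagging. MSX2 had 60 UMIs in 27 of these cells (69.5 CPM), LHX8 24 UMIs in 10 cells (27.8 CPM), MSX1 8 UMIs in 5 cells and PAX9 8 UMIs in 5 cells. LHX6 (3 UMIs) and BARX1 (2 UMIs) were at or under that number, which does not show them to be absent. Of the 60 MSX2 UMIs, 39 and 5 were in LG252 replicates 2 and 1 and 6 and 10 in LG255 replicates 1 and 2, and all 8 of MSX1 were in LG252 replicate 2. Whether these barcodes are single cells or 2 cells was not tested. Scrublet's highest scores at the assumed rate took out 8 of them.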

How the results depend on the processing

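The number of genes called between mesenchymal and epithelial cells was 3358, and 2144 of 7870 tested after thinning to 2000 UMIs. All 5 genes of the set still tested passed there, but MSX1 missed the count filter and was not tested. With no filter on low counts all 6 passed, beside 4506 of the 18731 genes tested. Leaving out each library in turn gave 2075 to 3496 genes and 4 to 5 of the 6. With no replicate block it was 2546 of 11638 genes and 5 of the 6 (BARX1 added). Between mesenchymal and other cells, 1126 of 8166 genes tested became 3024 of 18720 with no filter on low counts and 657 of 4001 after thinning. After thinning 2 of the 3 genes of the set still tested passed, and MSX1, MSX2 and LHX6 were not tested. With no filter and with DESeq2, 5 of the 6 passed, and with DESeq2 1497 of all 8166 genes tested did so. Leaving out each library gave 364 to 1967 genes and 3 to 5 of the set, but without LG252 replicate 2 only 5 of the 6 were tested and 3 passed. Between the animals within mesenchyme, 34 of 7637 genes became 189 of 3787 with DESeq2 (MSX1, 1 of the 5 tested). The number was 573 of 16826 with no filter (MSX1 and BARX1, 2 of the 6). With the replicate number as a block it was 101 of 7637 (none of the 6). It was 21 and 20 with a mesenchymal minimum of 10 and 3 UMIs, 137 with cells of both rules counted as mesenchymal and 88 after thinning. Leaving out each library gave 0 to 1071 genes and 0 to 3 of the 6: 405 without LG252 replicate 1, 1071 without LG252 replicate 2 and 0 without either LG255 replicate.

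The fold changes of single genes kept their sign between classes in every alternative run. Between the animals, MSX2 turned positive with no filter (0.014), after thinning (0.54), without LG252 replicate 1 (0.78) and without LG255 replicate 2 (0.25), and ranged from -3.92 to 0.78 over libraries left out. LHX6 turned positive with cells of both rules included (0.19), without LG252 replicate 2 (0.069) and without LG255 replicate 1 (0.26), and ranged from -0.77 to 0.26. None of the positive values passed. The number of genes with a higher mean share in LG252 was 3 of 6 and ranged from 1 to 3 over libraries left out; pairs found together more often than expected numbered 15, and 12 to 15 over libraries left out. The causes were not tested.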
